A study of Mus musculus with 46 samples.

Results

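The Toll-like receptors described here are the 10 genes Tlr1, Tlr2, Tlr3, Tlr4, Tlr5, Tlr6, Tlr7, Tlr8, Tlr9 and Tlr13. They were taken by symbol, as 10 of the 23329 gene rows of a count table, which holds 12 Toll-like receptor genes. No rule on measured values was used, but earlier results of these data were known when they were chosen. Each of 23 glioma-bearing mice gave 2 sorted libraries, 46 in all: microglia (MG), which are the macrophages that reside in brain tissue, and macrophages of bone marrow origin (BMDM). All mice were nTVA Ink4a/Arf KO/KO animals, injected intracranially at 5 to 6 weeks of age with DF1 cells, a chicken fibroblast line, carrying RCAS-PDGFB-HA, so that the vehicle mice also lacked Ink4a/Arf and bore PDGFB tumours. By the mouse numbers in the labels, both populations of every stage came from the same mice. There were 4 mice with vehicle, 4 with BLZ945 for 5 days, 2 at 5 days of radiation (IR) and 3 at 5 days of both agents. Tumours that had recurred came from 2 mice treated with BLZ945, 4 with IR and 4 with both. BLZ945 blocks the kinase CSF1R, on whose signals macrophages depend for survival. Both gates took CD45+ CD11b+ cells lacking Ly6C and Ly6G, and CD49d split them into MG (negative) and BMDM (positive), so a population is a gate and not a lineage trace, and the radiation dose and the mice's ages at collection are not in the labels. The series asked how the populations respond to therapy while tumours shrink and after they grow back.

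Toll-like receptors are membrane proteins that recognise conserved microbial molecules and products of damaged cells through a leucine-rich ectodomain and signal through a cytoplasmic TIR domain. Tlr2 pairs with Tlr1 or Tlr6 at the cell surface to bind lipopeptides, Tlr4 binds lipopolysaccharide with its partner MD-2, and Tlr5 binds flagellin. Tlr3, Tlr7, Tlr8, Tlr9 and Tlr13 sit in endosomes, which they reach with the chaperone Unc93b1, and bind nucleic acids: double-stranded RNA for Tlr3, single-stranded RNA for Tlr7 and Tlr8, unmethylated CpG DNA for Tlr9 and bacterial ribosomal RNA for Tlr13. All but Tlr3 signal through the adaptor Myd88, Tlr3 signals through Ticam1 and Tlr4 uses both, and the pathways end in NF-kB and interferon regulatory factors. Microglia and macrophages are among the main cells of the brain that carry these receptors.

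In the mouse annotation (GRCm38, GENCODE), Tlr7 (chromosome X, 167304929 to 167330558) and Tlr8 (chromosome X, 167242696 to 167264329) lie next to each other on the minus strand with 40599 bases between them. Tlr1 (chromosome 5, 64924679 to 64933563) and Tlr6 (chromosome 5, 64952031 to 64960097) are also minus-strand neighbours, 18467 bases apart. Tlr1 and Tlr6 are close paralogs: 454 words of 50 bases were found in the transcripts of both, 15.3% of those of Tlr1 and 12.5% of those of Tlr6, and no other pair of members shared any. Reads from such stretches could be counted for either gene or left out, so the levels of Tlr1 and Tlr6 are less certain than the others. Tlr2 lies on chromosome 3 (83836272 to 83841767), Tlr4 on chromosome 4 (66827584 to 66930284), Tlr5 on chromosome 1 (182954788 to 182976044), Tlr9 on chromosome 9 (106222598 to 106226883) and Tlr13 on chromosome X (106143204 to 106160493). Tlr3 (chromosome 8, 45395665 to 45411080) overlaps the antisense gene Gm45542, and without knowing the strand setting of the counts the reads of the 2 cannot be told apart.

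The 250 bases before the RefSeq start are shown for 2 members, Tlr8 as the member that was higher in BMDM, and Tlr1. The order of Tlr1 in MG and BMDM was not the same in vehicle mice as after 5 days of either BLZ945 treatment. The sequences come from RefSeq (GRCm38.p6), which matched 8 of the 10 members and had no entry for Tlr4 or Tlr7. They are written 5' to 3' on the gene's own strand, the minus strand for both. Capitals mark matches, on either strand, to 5 motifs.

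Tlr1 (chr5:64933559-64933808): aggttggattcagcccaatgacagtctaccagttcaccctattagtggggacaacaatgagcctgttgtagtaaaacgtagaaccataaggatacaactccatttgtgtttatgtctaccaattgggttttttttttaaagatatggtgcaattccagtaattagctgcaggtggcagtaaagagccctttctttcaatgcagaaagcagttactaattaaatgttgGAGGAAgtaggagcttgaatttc

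Tlr8 (chrX:167264330-167264579): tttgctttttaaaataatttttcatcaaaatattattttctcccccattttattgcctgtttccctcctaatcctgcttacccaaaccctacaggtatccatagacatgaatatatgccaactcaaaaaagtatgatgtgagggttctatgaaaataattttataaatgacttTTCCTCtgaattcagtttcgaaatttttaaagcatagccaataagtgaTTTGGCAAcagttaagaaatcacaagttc

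The motifs searched were GAGGAA for PU.1, the factor that defines macrophages, GGGA and CC with any 4 bases between for NF-kB, a pair of GAAA with any 2 bases between for the interferon-stimulated response element, TGANTCA for AP-1 and TTGCNNAA for C/EBP. Tlr1 held a PU.1 match 23 bases before the RefSeq start, and Tlr8 a PU.1 match at 77 and a C/EBP match at 29. The RefSeq start of Tlr1 lies a few bases inside the GENCODE gene, and that of Tlr8 coincides with the GENCODE start. In the windows of Tlr2 and Tlr6, whose RefSeq starts lie further inside the GENCODE genes, Tlr2 held 1 NF-kB match, which reads on both strands, and Tlr6 none of the 5. Of all 32841 RefSeq windows of this length, 23.3% held the PU.1 letters, 17.6% those of NF-kB, 9.57% those of C/EBP, 6.75% those of AP-1 and 2.98% the response element. These matches are descriptions of the sequence and not measured binding.

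Total counts per library ran from 3007379 to 16993474. In vehicle mice Itga4, which encodes the sorted antigen CD49d, stood at a mean of 1.98 log2 CPM (CPM being a gene's count relative to the scaled library total) in MG and 7.11 in BMDM. In what follows 6 libraries are doubted. BMDM of mice 122, 124 and 65698 and MG of mice 65971 and 68344 had fewer than 11000 genes with 10 or more counts. In mouse 65698 the sex-linked genes of MG and BMDM did not match, so both its libraries are doubted. In 11 mice both libraries had higher Xist than mean Y-linked levels, and in 11 others both had the reverse. All 5-day BLZ945 mice had the Xist profile, and all mice of recurrence after IR the Y profile. The sex-linked profile is thus not balanced over the stages, and Tlr7, Tlr8 and Tlr13 lie on chromosome X. A term for this profile is among the other settings used below. So is one for mouse number style, meaning whether the number in the label is short or long. Short numbers occur only in vehicle mice 41 and 78 and in 5-day BLZ945 mice 122, 123 and 124. No IR, combination or recurrent mouse has one. Of the 5-day BLZ945 mice only 65975 has a long number. When 5-day BLZ945 is compared with recurrence or the combination, style and stage are therefore hard to separate. In these sorted bulk samples fewer cells of a type and less RNA per cell cannot be told apart. Of the 460 values of the 10 genes, 11 were 0 counts, which is written as -3.53 log2 CPM.

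Per kilobase of transcript, Tlr2 had the highest level of the 10 genes in both populations of vehicle mice. In MG its mean was 381 CPM per kilobase (range 253 to 585), followed by Tlr13 at 104 (80.1 to 124), Tlr7 at 52.4 (41.2 to 60.6), Tlr4 at 23.9 (19.8 to 31.8) and Tlr1 at 19.8 (17.9 to 22.3). The range of each of the first 4 did not overlap that of the next, except that Tlr4 and Tlr1 overlapped. Tlr3 stood at 12.5, Tlr6 at 6.84, Tlr5 at 1.08, Tlr9 at 0.995 and Tlr8 at 0.703 CPM per kilobase, and the last 3 overlapped. In BMDM the order began with Tlr2 at 226 (129 to 330) and Tlr13 at 79.7 (72.8 to 96.2), which did not overlap, then Tlr1 at 26.9, Tlr7 at 24.6, Tlr4 at 16.6, Tlr8 at 12.8, Tlr3 at 12.6, Tlr6 at 5.66, Tlr9 at 0.382 and Tlr5 at 0.312. Tlr1 (23.1 to 31.3) and Tlr7 (21.4 to 28.8) overlapped there, as did Tlr8 (10.8 to 16.2) and Tlr3 (6.34 to 15.7). Tlr8 was the last of the 10 in vehicle MG and the sixth in vehicle BMDM. Tlr2 ranked first in all 14 groups of population and stage.

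**Figure D1:**
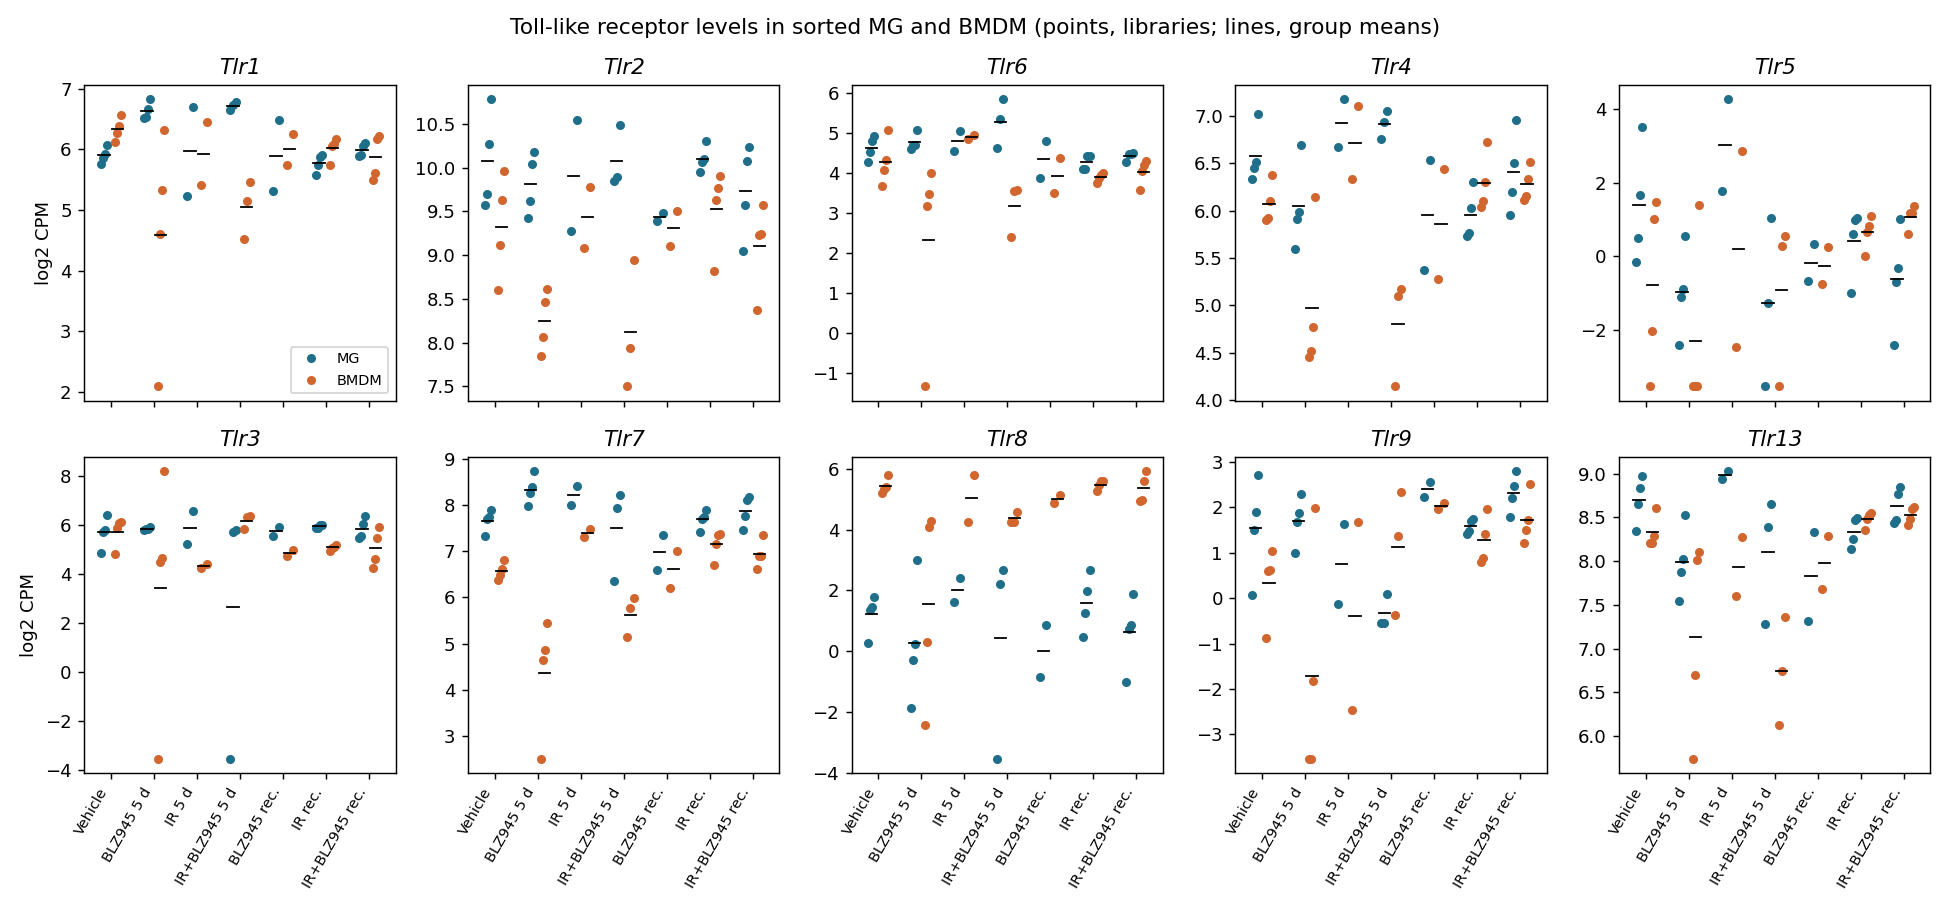
Level of each Toll-like receptor gene (log2 CPM, vertical axis, a scale of its own in each panel) in every library by stage (horizontal axis), MG in teal and BMDM in orange, with a line at each group mean. The orange points of Tlr8 lie above the teal ones in vehicle mice (5.22 to 5.80 against 0.28 to 1.78), and those of Tlr7 after 5 days of BLZ945 lie below (2.51 to 5.45 against 7.97 to 8.72).

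The difference between MG and BMDM was tested in each of the 7 stages with edgeR's quasi-likelihood test over all genes, with Benjamini-Hochberg adjustment and a threshold of 0.05. In vehicle mice 2 of the 10 members passed, Tlr7 higher and Tlr8 lower in MG, where 9.14% of all genes tested passed. After 5 days of BLZ945, 5 passed, all higher in MG, against 21.8% of all genes (11.6% higher in MG), and after 5 days of IR with BLZ945, 6 passed, all higher in MG, against 12.8% (5.68% higher in MG). None passed with 5 days of IR alone, against 9.09% of all genes, with only 2 mice. In recurrence Tlr8 alone passed, after IR (1.91% of all genes) and after IR with BLZ945 (4.41%), and none passed after BLZ945 (0.0818%), again with 2 mice. The median log2 difference of the 10 members was 0.45 in vehicle mice (0.09 over all genes tested), 1.19 after BLZ945 (0.03) and 1.52 after the combination (-0.03), and 0.42, 0.12, 0.08 and 0.28 in 5-day IR and in recurrence after BLZ945, IR and both.

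**Figure D2:**
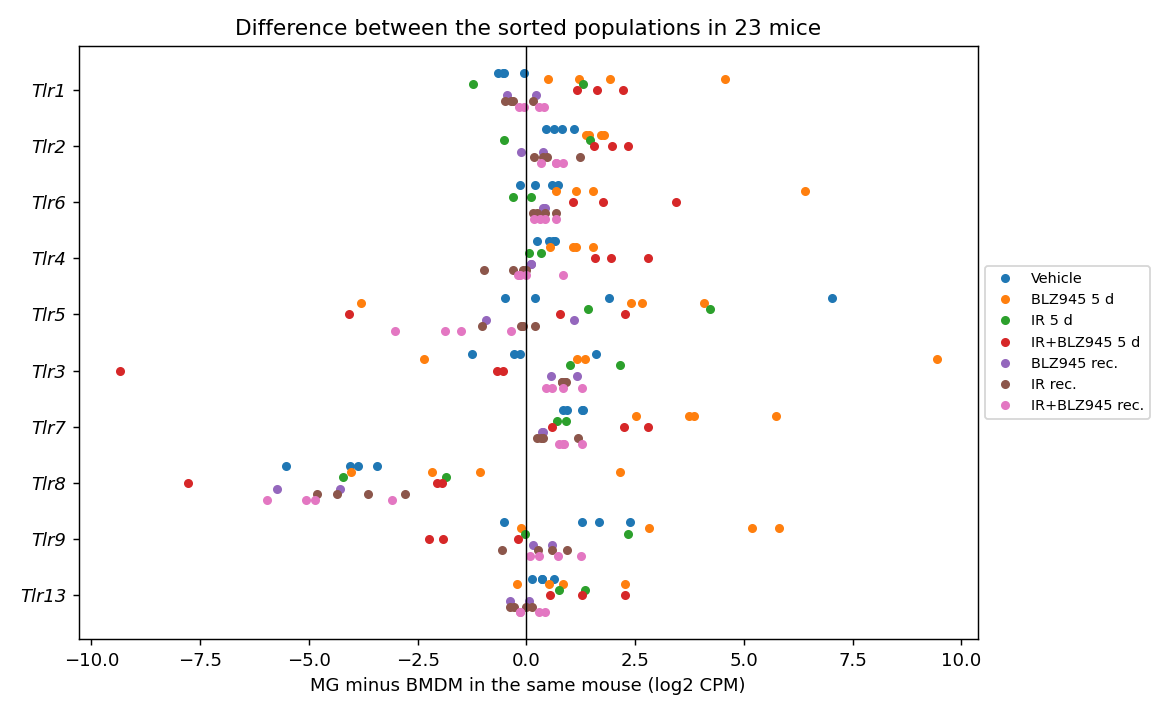
MG minus BMDM difference in log2 CPM (horizontal axis) for each gene (vertical axis) in each of the 23 mice, coloured by stage. Tlr7 lies right of 0 in 23 of 23 mice and Tlr8 left of 0 in 22 of 23. Pairs follow the mouse number, and the libraries of mouse 65698 did not match in sex-linked genes.

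Tlr7 and Tlr8, the endosomal receptors for single-stranded RNA, were divided between the populations in opposite directions. Vehicle MG held Tlr7 at 7.69, 7.74, 7.88 and 7.33 log2 CPM in mice 41, 65966, 65967 and 78, and BMDM of the same mice at 6.38, 6.81, 6.60 and 6.49. Vehicle MG held Tlr8 at 0.28, 1.78, 1.37 and 1.46 log2 CPM and BMDM at 5.80, 5.22, 5.42 and 5.34. Every MG library was above every BMDM library for Tlr7 and below every one for Tlr8. The log2 difference between MG and BMDM was 1.09 ± 0.34 (SE) for Tlr7 (edgeR adjusted p = 0.0353) and -4.19 ± 0.92 for Tlr8 (edgeR adjusted p = 0.00168). The call for Tlr7 was lost without any 1 of 6 of the 8 vehicle libraries (MG or BMDM of mouse 41 or 65967, MG of 65966, BMDM of 78), with an adjusted p of up to 0.0919 and a difference of 1.02 to 1.19, while that for Tlr8 passed without each of the 8.

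Within mice, Tlr7 was higher in MG in 23 of 23, by a median of 0.92 log2 CPM (range 0.25 to 5.74), and Tlr8 was higher in BMDM in 22 of 23, by a median MG minus BMDM difference of -4.04. Pairs follow the mouse number, and the 23 include mouse 65698, whose libraries did not match in sex-linked genes. The exception for Tlr8 was mouse 124 of 5-day BLZ945, whose doubted BMDM library held Tlr8 at -2.43 log2 CPM. Tlr8 differed by -3.68 ± 0.90 in recurrence after IR (edgeR adjusted p = 0.0182) and by -4.54 ± 0.94 after IR with BLZ945 (edgeR adjusted p = 0.0018). It was at -4.89 ± 1.37 in recurrence after BLZ945 (edgeR adjusted p = 0.2), -3.19 ± 1.24 after 5 days of IR (adjusted p = 0.1), -1.90 ± 0.85 after 5 days of BLZ945 (adjusted p = 0.105) and -2.45 ± 0.99 after 5 days of both (adjusted p = 0.0941), none of which passed. The last was -2.88 with the mouse as a block and then passed (edgeR adjusted p = 0.0457). Without the doubted libraries the differences in recurrence after BLZ945 (-4.91), after 5 days of IR (-4.24) and after 5 days of BLZ945 (-2.86) passed as well, with edgeR adjusted p of 0.00635, 0.0355 and 0.00195. For 5 days of IR that leaves 1 mouse, 65972, with 1 library per population, whose spread is assumed to be that of the other groups. The call in recurrence after IR was lost without MG of mouse 68343, 68344 or 68346, with an adjusted p of up to 0.0949.

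The share of Tlr8 among the counts of Tlr7 and Tlr8 together does not depend on the scaling of a library. In BMDM it ran from 1.72% to 40.8% with a median of 25.9% over 23 libraries, and in MG from 0% to 3.59% with a median of 1.05%. The lowest BMDM shares were 1.72% in mouse 124 (exact 95% interval 0.0436 to 9.24), 3.79% in mouse 122 (1.91 to 6.69) and 9.59% in mouse 65698 (8.36 to 10.9), 3 doubted libraries, and the other 20 lay at 20.7% or above. These intervals cover counting error only. MG held few dendritic cell transcripts (11.2 to 97.0 CPM summed over 8 markers, against 78.5 to 3797 in BMDM). In vehicle mice 7 of these 8 markers and all 8 blood-derived macrophage markers were lower in MG, with 9 of 10 microglia identity markers higher. The blood-derived macrophage markers include Itga4, which encodes the sorted antigen CD49d and is not independent of the sort. Of all genes tested, 9.14% passed between vehicle MG and BMDM in either direction. The part of these cell types in the division of Tlr7 and Tlr8 was not tested.

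**Figure D3:**
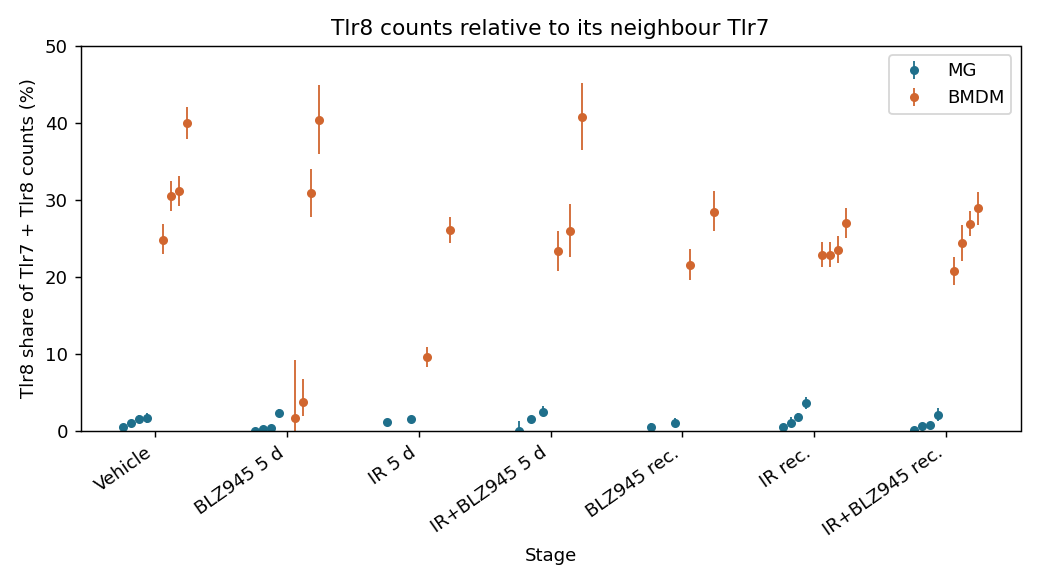
Share of Tlr8 in the summed counts of Tlr7 and Tlr8 (percent, vertical axis) in each library by stage (horizontal axis), with exact 95% intervals for counting error, MG in teal and BMDM in orange. All MG shares are at or below 3.59%, and all but 3 of the BMDM shares are at or above 20.7%.

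Tlr7 fell in BMDM after 5 days of BLZ945 and was not lower in any MG library than in vehicle MG. BMDM of mice 122, 123, 124 and 65975 held it at 4.87, 4.63, 2.51 and 5.45 log2 CPM, all below the 4 vehicle libraries, which began at 6.38. MG of the same mice held it at 8.72, 8.38, 8.25 and 7.97, all above the 4 vehicle libraries, which ended at 7.88. Against vehicle the change was -1.86 ± 0.39 in BMDM (edgeR adjusted p = 0.00796), 1 of the 10 members that passed, against 5.51% of all genes. In MG it was 0.77 ± 0.28 (edgeR adjusted p = 0.226), and none of the 10 members passed there, against 0.303% of all genes and 1947 genes at an unadjusted p under 0.05. The difference between these responses, tested directly, was 2.58 ± 0.49 (edgeR adjusted p = 0.00242), 1 of the 10 members that passed against 1.65% of all genes. The gap between MG and BMDM was 3.67 ± 0.38 after BLZ945 (edgeR adjusted p = 2.53e-09). Without the doubted libraries the fall in BMDM was -1.46, the gap 3.27 and the difference of responses 2.17, and all passed, as they did without each single library of the compared groups.

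Tlr8 in the same BMDM libraries stood at 0.30, 4.08, -2.43 and 4.29 log2 CPM, all below vehicle. The change was -2.18 ± 0.74 and did not pass (edgeR adjusted p = 0.0834), while without the doubted libraries it was -1.25 and passed (adjusted p = 0.031).

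Markers of other cell types moved with Tlr7 in BMDM after BLZ945. Of 10 microglia identity markers, 7 fell, and their summed level was 1055 to 3198 CPM against 6076 to 11097 in vehicle BMDM. Of 8 dendritic cell markers, 4 rose, with a sum of 2395 to 3700 CPM against 793 to 1313, and no defining marker of either list was at 0 in all 4 libraries. The part of these shifts in the fall of Tlr7 was not tested.

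In recurrence after BLZ945 the levels of Tlr7 lay closer together. MG of mice 67668 and 70696 held it at 7.35 and 6.60 log2 CPM and BMDM at 7.0 and 6.21. Compared with 5 days of BLZ945, Tlr7 rose by 1.97 ± 0.44 in BMDM (edgeR adjusted p = 0.0112), 1 of 10 members against 6.82% of all genes, and in MG the change was -1.36 ± 0.36 (edgeR adjusted p = 0.0229), 1 of 10 against 8.24%. The MG change was lost under 4 of 8 other settings, with a change as small as -0.88 (adjusted p up to 0.542). These were the single fit over all libraries and the terms for Malat1 minus Lars2, the mouse number style and the sex-linked profile. The MG change did not pass either without mouse 122, 67668 or 70696 (adjusted p up to 0.209). The BMDM change did not pass without mouse 67668 (1.51, edgeR adjusted p = 0.192) or with the term for the mouse number style (adjusted p = 0.104). Several other measures moved beside these changes. Glioma markers were higher at recurrence, 5 of 6 in each population (410 to 683 CPM in recurrent MG against 4.68 to 63.3 at 5 days). In BMDM, 4 of 10 microglia identity markers rose (5299 to 8236 CPM against 1055 to 3198) and 4 of 8 dendritic cell markers fell (158 to 436 CPM against 2395 to 3700). In MG, 2 of 10 microglia identity markers fell (9010 to 14153 CPM against 16018 to 27953).

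Lars2 and Malat1, used as checks of the RNA in a library, differed too between these stages. Mean Lars2 went from 7.90 to 12.53 log2 CPM in BMDM and from 7.81 to 13.19 in MG, and mean Malat1 from 12.28 to 9.12 and from 11.60 to 9.22. The part of all these in the changes of Tlr7 was not tested further. Mean Lars2 was higher at recurrence in the other arms too. In MG it went from 5.80 to 11.89 log2 CPM after IR and from 7.43 to 13.97 after the combination. In BMDM it went from 3.10 to 12.03 and from 7.23 to 12.30. Vehicle MG libraries ran from 6.15 to 13.87. With the Malat1 minus Lars2 term, recurrence against the 5-day combination in MG called 158 genes instead of 4077.

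Under the 5-day combination of IR with BLZ945, MG of mice 65696, 65971 and 67537 held Tlr7 at 7.93, 6.36 and 8.23 log2 CPM and BMDM at 5.13, 5.76 and 5.98. The lowest MG value was that of the doubted library of mouse 65971, still above the 3 BMDM libraries. The gap was 2.05 ± 0.41 (edgeR adjusted p = 0.000604). With IR alone for 5 days, Tlr7 stood at 8.41 and 8.01 in MG and 7.49 and 7.32 in BMDM, which is without overlap but did not pass. In recurrence after IR and after the combination, MG libraries ran from 7.40 to 8.18 log2 CPM and BMDM libraries from 6.61 to 7.36. The rise of Tlr7 in BMDM from the combination to recurrence was not called. It passed under the single fit (1.29, edgeR adjusted p = 0.0382), with DESeq2 (1.20, DESeq2 adjusted p = 0.0481) and without the doubted libraries (1.27, edgeR adjusted p = 0.00696).

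Of the surface receptors for lipopeptides, Tlr2 was higher in MG in 21 of 23 mice. Vehicle MG held it at 9.58, 10.78, 10.27 and 9.70 log2 CPM and BMDM at 9.12, 9.96, 9.62 and 8.60, groups that overlapped (0.75 ± 0.33, edgeR adjusted p = 0.175). With the mouse as a block this difference was 0.76 and passed (edgeR adjusted p = 0.0427). MG was the higher in each of the 4 mice. At 5 days of BLZ945, MG held Tlr2 at 9.43, 9.62, 10.05 and 10.17 and BMDM at 8.07, 7.84, 8.61 and 8.46, without overlap (1.58 ± 0.34, edgeR adjusted p = 0.000556). With IR and BLZ945 for 5 days the levels were 9.85, 10.49 and 9.90 in MG and 7.50, 8.94 and 7.93 in BMDM, again without overlap (1.87 ± 0.39, edgeR adjusted p = 0.00115). Against vehicle Tlr2 did not pass in either population at any stage in the fits within a population: in BMDM it was -1.12 ± 0.35 after BLZ945 (edgeR adjusted p = 0.0642) and -1.11 ± 0.39 after the combination (adjusted p = 0.182), and in MG -0.24 ± 0.32 and 0.09 ± 0.34. The BMDM change after BLZ945 did pass under the single fit over all libraries (-1.13, edgeR adjusted p = 0.0272), with DESeq2 (-1.05, adjusted p = 0.037) and without BMDM of vehicle mouse 78 (-1.32, edgeR adjusted p = 0.0408).

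Tlr1, a partner of Tlr2 for triacylated lipopeptides, stood in a different order in MG and BMDM in vehicle mice than after 5 days of either BLZ945 treatment. Vehicle MG held it at 5.92, 5.85, 6.08 and 5.76 log2 CPM and BMDM at 6.57, 6.39, 6.13 and 6.27, so that BMDM was the higher in 4 of 4 mice, a difference that did not pass (-0.44 ± 0.39, edgeR adjusted p = 0.598). With BLZ945 for 5 days MG stood at 6.66, 6.52, 6.53 and 6.83 and BMDM at 2.09, 4.61, 5.32 and 6.33, so that MG was the higher in 4 of 4 mice (1.43 ± 0.40, edgeR adjusted p = 0.00826). After the 5-day combination MG stood at 6.74, 6.64 and 6.78 and BMDM at 4.53, 5.47 and 5.15 (1.64 ± 0.47, edgeR adjusted p = 0.017), a call lost without BMDM of mouse 65696 (adjusted p = 0.062). The other stages did not show this order throughout. MG was the higher in 1 of 2 mice after 5 days of IR. In recurrence it was the higher in 1 of 2 mice after BLZ945, 1 of 4 after IR and 2 of 4 after both. The difference of the MG and BMDM responses to treatment, tested directly, did not pass, at 1.87 ± 0.56 for BLZ945 (edgeR adjusted p = 0.0796) and 2.08 ± 0.61 for the combination (adjusted p = 0.138). For BLZ945 it passed with DESeq2 (1.85, DESeq2 adjusted p = 0.0248) and with the term for the mouse number style (2.01, edgeR adjusted p = 0.0487). For the combination it passed with DESeq2 (2.23, DESeq2 adjusted p = 0.0179) and without the doubted libraries (2.11, edgeR adjusted p = 0.00798). The BMDM value of 2.09 is from the doubted library of mouse 122, and without doubted libraries the MG minus BMDM difference after BLZ945 was 0.94 and passed.

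In MG, Tlr1 rose after the combination. Against vehicle the change was 0.96 ± 0.27 (edgeR adjusted p = 0.0274), 1 of 2 members that passed there against 13.4% of all genes, with all 3 libraries above the 4 of vehicle. Without MG of vehicle mouse 41, 65966 or 78 it did not pass (adjusted p up to 0.0834), nor under 3 of 8 other settings, the single fit over all libraries and the terms for Malat1 minus Lars2 and the mouse number style (0.84 to 1.07 over all 8, adjusted p up to 0.196). After BLZ945 alone it was 0.82 ± 0.25 with all 4 libraries above vehicle (edgeR adjusted p = 0.135), and without the doubted libraries it was 0.82 with an adjusted p of 0.0235. In recurrence after the combination Tlr1 was back at 5.91, 5.89, 6.11 and 6.06 log2 CPM, a change of -0.87 ± 0.27 from 5 days (edgeR adjusted p = 0.0216), 1 of 3 members that passed against 28.1% of all genes. This change did not pass without any 1 of the 4 recurrent MG libraries (mice 67169, 67543, 67947 and 68362, adjusted p up to 0.076), nor under the single fit or the term for Malat1 minus Lars2 (adjusted p up to 0.321). In BMDM Tlr1 was -1.10 ± 0.49 against vehicle after BLZ945 (edgeR adjusted p = 0.179), but without the library of mouse 65975, which stood at the vehicle level, it was -1.81 and passed (edgeR adjusted p = 0.018). The library of mouse 65975 is not a doubted one, and the BLZ945 libraries then left include the doubted ones of mice 122 and 124. Without the doubted libraries this BMDM change did not pass.

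Tlr6, the partner of Tlr2 for diacylated lipopeptides, stood at 4.82, 4.52, 4.92 and 4.28 log2 CPM in vehicle MG and at 4.09, 4.32, 5.07 and 3.69 in vehicle BMDM, which overlapped (0.27 ± 0.46, edgeR adjusted p = 0.813). At 5 days of BLZ945 it stood at 5.08, 4.70, 4.72 and 4.61 in MG and at -1.32, 4.02, 3.19 and 3.47 in BMDM (1.59 ± 0.47, edgeR adjusted p = 0.0118). After the 5-day combination it stood at 5.35, 5.85 and 4.64 in MG and 3.57, 2.40 and 3.56 in BMDM (2.10 ± 0.55, edgeR adjusted p = 0.00912), a call lost without BMDM of mouse 65971 (adjusted p = 0.0644). Neither of the treated stages overlapped between MG and BMDM, and the value of -1.32 is again from mouse 122, without which and the other doubted libraries the difference after BLZ945 was 1.03 and passed. In MG, Tlr6 fell by 1.07 ± 0.29 on the log2 scale from the 5-day combination to recurrence (edgeR adjusted p = 0.0115), but by 0.70 without the doubted libraries, which did not pass (adjusted p = 0.0549). It did not pass either under the single fit or the term for Malat1 minus Lars2 (adjusted p up to 0.204).

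Tlr4, the receptor for lipopolysaccharide, stood at 6.51, 6.45, 7.02 and 6.34 log2 CPM in vehicle MG and 5.90, 5.93, 6.37 and 6.10 in vehicle BMDM (0.52 ± 0.32, edgeR adjusted p = 0.387). Under IR with BLZ945 at 5 days it stood at 6.75, 6.94 and 7.05 in MG and 5.17, 4.15 and 5.10 in BMDM. This gap, without overlap, was 2.05 ± 0.39 (edgeR adjusted p = 0.000307) and passed without each of the 6 libraries. After BLZ945 alone MG held Tlr4 at 5.91, 5.60, 5.98 and 6.69 and BMDM at 4.77, 4.52, 4.46 and 6.14, which overlapped through mouse 65975 (0.94 ± 0.33, edgeR adjusted p = 0.0319). That call was lost without the doubted libraries (0.56, edgeR adjusted p = 0.307) and without BMDM of mouse 122, 123 or 124 or MG of mouse 65975. In BMDM, Tlr4 was -0.90 ± 0.36 against vehicle after BLZ945 (edgeR adjusted p = 0.136), or -1.47 and passing without mouse 65975 (adjusted p = 0.00588). The library of mouse 65975 is not a doubted one, and those then left include the doubted ones of mice 122 and 124. Without the doubted libraries this BMDM change did not pass. The difference of the responses to the combination was not called, but was 1.61 with the mouse as a block (edgeR adjusted p = 0.0471). From the combination to recurrence Tlr4 was not called in BMDM. Its rise there passed under the single fit (1.40, edgeR adjusted p = 0.0177) and with DESeq2 (1.29, DESeq2 adjusted p = 0.017). It also passed with the mouse number style term (1.39, edgeR adjusted p = 0.0273) and without the doubted libraries (1.38, edgeR adjusted p = 0.0182). The Tlr4 partner Ly96 (MD-2) and the coreceptor Cd14 did not pass between the populations in any stage.

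Tlr5, the flagellin receptor, was near the limit of detection and passed in no comparison. Counts were 47, 11, 172 and 14 in vehicle MG of mice 41, 65966, 65967 and 78, and 42, 2, 0 and 33 in their BMDM. Its highest counts, 234 in MG and 86 in BMDM, both came from the 5-day IR mouse 65972. After 5 days of BLZ945, MG held 4, 1, 5 and 15 counts, and BMDM 30 in mouse 123 and 0 in the other 3.

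Tlr3, the receptor for double-stranded RNA, did not pass in any comparison either, although its counts were higher. Vehicle MG held 821, 704, 1287 and 303 counts and BMDM 1043, 741, 429 and 1187. The libraries of 5-day BLZ945 BMDM spread widely, with 0 counts in mouse 122, 290 in 123, 223 in 124 and 4038 in 65975. In MG of the 5-day combination, mouse 65971 held 0 counts and the other 2 held 505 and 604. Both libraries with 0 counts are doubted ones. Without the doubted libraries the difference between MG and BMDM after BLZ945 was -1.46 and passed (edgeR adjusted p = 0.0258). That fit keeps BMDM of mice 123 and 65975 only, which lay on opposite sides. MG minus BMDM was 1.17 log2 CPM in mouse 123 and -2.36 in mouse 65975. Over all mice of that stage MG was the higher in 3 of 4.

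Tlr9, the receptor for CpG DNA, was low in both populations, at 98, 13, 42 and 38 counts in vehicle MG and 31, 18, 7 and 25 in vehicle BMDM. Between MG and BMDM it differed by 1.69 ± 0.91 after 5 days of BLZ945 (edgeR adjusted p = 0.182), or by 3.82 with the mouse as a block, which passed (adjusted p = 0.0184). BMDM held 46 counts in mouse 123 of that stage and 0 to 2 in the other 3, and without that library the difference was 5.53. In MG of the 5-day combination it had 9, 2 and 7 counts, or 0.10, -0.55 and -0.55 log2 CPM, against 2.72, 0.08, 1.51 and 1.89 in vehicle MG, which overlapped at the lowest vehicle library. The change was -2.08 ± 0.62 (edgeR adjusted p = 0.0337), the other member that passed in this comparison, and against 5 days of BLZ945 alone it was -2.12 ± 0.63 (edgeR adjusted p = 0.0386), 1 of 10 members against 9.84% of all genes. In recurrence after the combination the counts were 43, 42, 67 and 33, a rise of 2.62 ± 0.63 from 5 days (edgeR adjusted p = 0.00615), without overlap. All 3 calls rest on the same 3 low libraries. The first was lost under 6 of 8 other settings and without MG of mouse 65971, 67537 or 41, and the second under 4 of 8 and without MG of mouse 122, 124, 65975, 65971 or 67537. The third was lost under 2 of 8, the single fit over all libraries and the term for Malat1 minus Lars2, at down to 0.99 (edgeR adjusted p up to 0.586). Choroid plexus markers differed in the first of these comparisons: all 6 rose in MG against vehicle, where 13.4% of all genes passed. Their sums were 21.8 to 1719 CPM against 1.04 to 5.77 in vehicle MG. At recurrence after the combination the sums were 4.87 to 26.5, which overlapped those at 5 days. The part of these markers in the changes of Tlr9, Tlr1 and Tlr6 in these MG libraries was not tested.

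Tlr13, which recognises bacterial ribosomal RNA and has no human counterpart, was the second most abundant member per kilobase in both populations of vehicle mice. In MG after 5 days of BLZ945 it stood below Tlr7. It stood at 8.65, 8.84, 8.97 and 8.35 log2 CPM in vehicle MG and 8.28, 8.21, 8.61 and 8.21 in vehicle BMDM (0.38 ± 0.32, edgeR adjusted p = 0.567). At 5 days of BLZ945 it stood at 7.88, 7.55, 8.02 and 8.53 in MG and 8.10, 6.70, 5.75 and 8.01 in BMDM, which overlapped. That difference of 0.61 ± 0.32 did not pass (edgeR adjusted p = 0.174), but was 0.84 with the mouse as a block and then passed (adjusted p = 0.0401). After the 5-day combination it stood at 8.39, 7.28 and 8.65 in MG and 6.12, 6.75 and 7.37 in BMDM, overlapping through the doubted MG library of mouse 65971 (1.39 ± 0.38, edgeR adjusted p = 0.0116). That call was lost without BMDM of mouse 65696 or MG of mouse 67537. In BMDM, Tlr13 was -1.45 ± 0.41 against vehicle after the combination (edgeR adjusted p = 0.103). This fall passed under the single fit (-1.49, edgeR adjusted p = 0.0262) and with DESeq2 (-1.40, DESeq2 adjusted p = 0.0215). It also passed with the mouse number style term (-1.70, edgeR adjusted p = 0.048) and without the doubted libraries (-1.46, edgeR adjusted p = 0.0103). From the combination to recurrence Tlr13 rose by 1.68 ± 0.41 (edgeR adjusted p = 0.025), to 8.60, 8.48, 8.62 and 8.41, 1 of 10 members against 3.69% of all genes. Without BMDM of mouse 65696, 65971, 67169, 67543 or 67947 that rise did not pass (adjusted p up to 0.126), nor with the terms for Malat1 minus Lars2 or the sex-linked profile (adjusted p up to 0.0678). Dendritic cell markers summed to 2859 to 3797 CPM in BMDM at 5 days of the combination and 211 to 562 at recurrence, and their part was not tested.

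**Figure D4:**
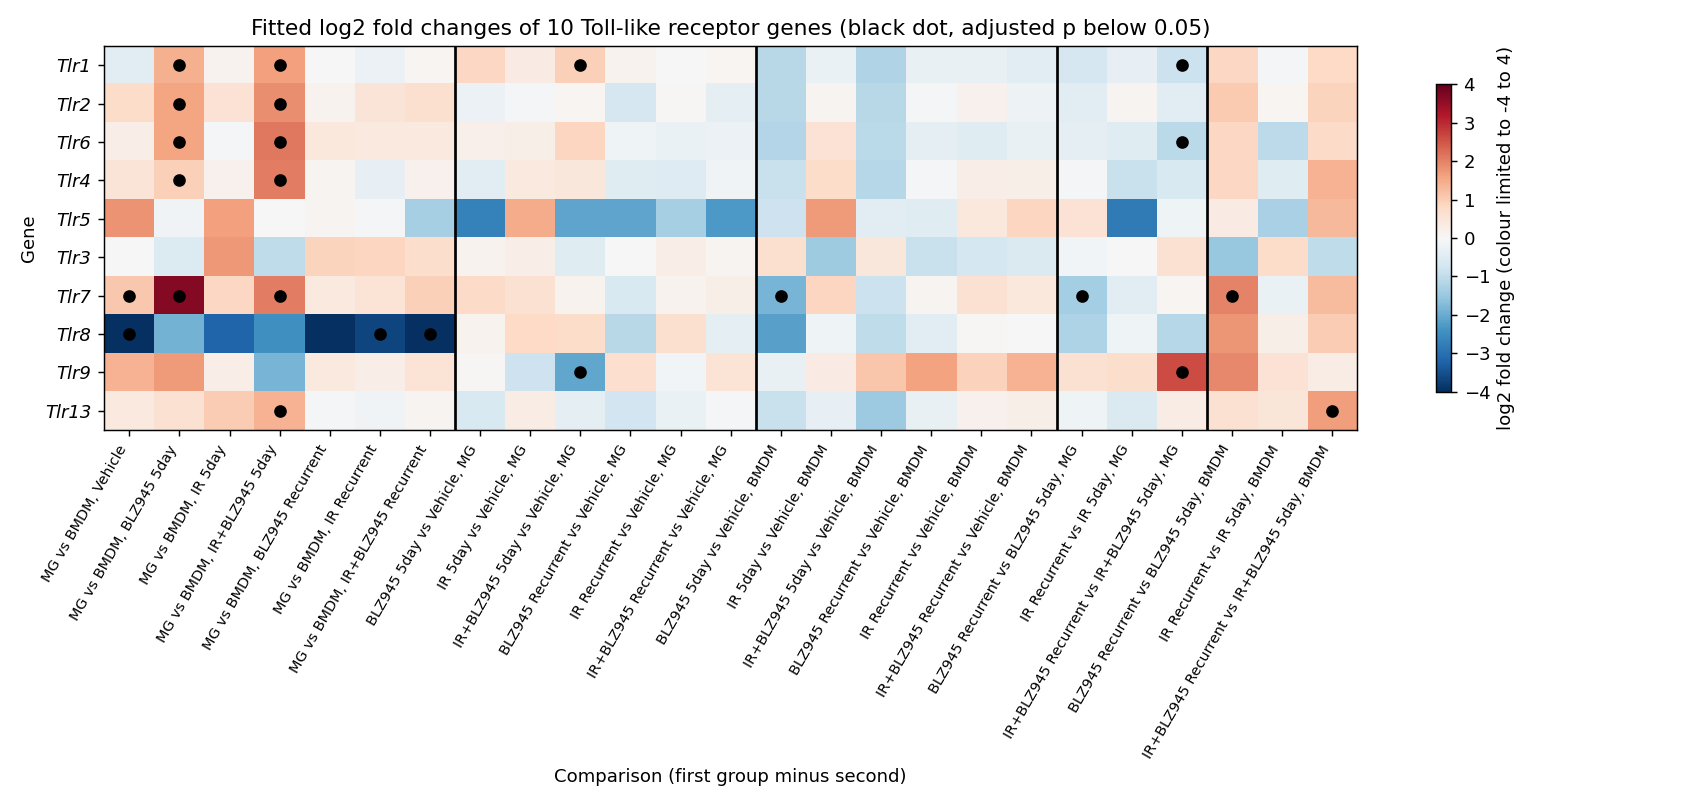
Fitted log2 fold changes (colour, limited to -4 to 4) of the 10 genes (rows) in MG against BMDM, in each treatment against vehicle and in recurrence against 5 days (columns, split by vertical lines into these families and by population). Black dots mark an adjusted p below 0.05: they gather in MG against BMDM after 5 days of BLZ945 and of IR with BLZ945, with 5 and 6 genes.

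In the comparisons within a population, few members passed. Against vehicle none of the 10 passed in MG after 5 days of IR (1.99% of all genes), nor in recurrence after BLZ945 (3.53%), IR (4.33%) or both (4.82%). In BMDM none passed after 5 days of IR (1.07% of all genes) or of the combination (0.57%), nor in recurrence after IR (1.87%), both (0.0275%) or BLZ945 (0% by edgeR, with 1183 genes at an unadjusted p under 0.05). From 5 days to recurrence after IR none passed in MG (11.6%) or BMDM (12.5%). In MG at that step Tlr4 was -0.90 ± 0.32 without overlap (edgeR adjusted p = 0.0668). The combination against BLZ945 in BMDM at 5 days (3.58%), and against IR in recurrence in MG and BMDM (0% each, with 2062 and 241 genes at an unadjusted p under 0.05), gave none. The responses of MG and BMDM differed in no member after 5 days of IR (0.0755%), of both (0.358%), or in recurrence after IR (0.0189%), BLZ945 or both (0% each, with 478 and 518 genes at an unadjusted p under 0.05). All comparisons with vehicle within a population share the same 4 vehicle libraries.

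After 5 days of either BLZ945 treatment most members were lower in BMDM, with few past the threshold. In BMDM 9 of 10 members were below vehicle after BLZ945 (median -1.0, against -0.06 over all genes tested) and 8 of 10 after the combination (median -1.05, against 0.05), of which 1 and 0 passed. By recurrence 9 of 10 were above the 5-day level in both arms (medians 0.82 and 0.96, against 0.08 and -0.01), of which 1 each passed. In MG the medians against vehicle were 0.09 and 0.12, with 6 of 10 above vehicle in both.

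Of the 12 coreceptors and chaperones of the family, Ly86 and Cd180 passed most often. These 2 proteins form a complex related to MD-2 and TLR4, known as MD-1 and RP105. In vehicle mice both were higher in MG, Ly86 at 11.65 against 9.94 log2 CPM (1.72 ± 0.30, edgeR adjusted p = 0.000117) and Cd180 at 6.52 against 4.45 (2.07 ± 0.38, edgeR adjusted p = 0.000169), the only 2 of the 12 that passed, against 9.14% of all genes. At 5 days of BLZ945, 3 of 12 were higher in MG (Cd180 by 3.16 ± 0.40, Ly86 by 2.03 ± 0.31, and Hsp90b1, the chaperone gp96, by 1.02 ± 0.34) and 1 lower, Cnpy3 (-0.58 ± 0.20), a cochaperone of gp96, against 21.8% of all genes. In BMDM itself 3 of 12 fell against vehicle: Cd180 (-1.44 ± 0.35), Hsp90b1 (-1.40 ± 0.32) and Ly86 (-1.24 ± 0.29), while Cnpy3 rose (0.86 ± 0.23), against 5.51% of all genes. Unc93b1, which carries the endosomal receptors to their compartment, stood at 10.10 in vehicle MG and 10.29 in vehicle BMDM and did not pass between them. It fell in MG from 5 days of BLZ945 to recurrence (-1.31 ± 0.32, edgeR adjusted p = 0.0129), a comparison in which Tlr7 also fell. Ly86 was lower in MG after 5 days of IR (-1.76 ± 0.39) and of the combination (-1.53 ± 0.33) than in vehicle MG, and in BMDM after the combination (-1.47 ± 0.32).

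Of 23 adaptors and signalling genes, none was higher and 3 were lower in vehicle MG than in BMDM, where 9.14% of all genes passed: Irf7 (-1.92 ± 0.44), an interferon regulatory factor downstream of Tlr7 and Tlr9, Ikbkb (-1.16 ± 0.35), an IkB kinase, and Traf6 (-0.97 ± 0.31), a ubiquitin ligase. With BLZ945 for 5 days, 2 were higher and 7 lower in MG, where 21.8% of all genes passed, with Chuk (-1.28 ± 0.28), Irf5 (-0.92 ± 0.22), Myd88 (-1.0 ± 0.24) and Ikbkb (-1.27 ± 0.35) of the smallest p. Myd88, the adaptor of nearly all members, was lower in MG in the same stage in which 5 receptors were higher there. In BMDM against vehicle Irf5 (0.87 ± 0.19) and Rela (1.00 ± 0.24), a subunit of NF-kB, rose after BLZ945 and none of the 23 fell, against 5.51% of all genes. Of 10 negative regulators, Sigirr, a decoy relative of the receptors, was lower in MG in vehicle (-1.80 ± 0.53), after BLZ945 (-3.39 ± 0.57), after IR (-2.38 ± 0.78) and after both (-3.71 ± 0.67). Irak3, which blocks IRAK release, was the other of the 10 that passed in vehicle mice (-1.67 ± 0.53), against 9.14% of all genes.

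Of 10 genes that the pathway induces, 2 passed in vehicle mice, both higher in MG, against 9.14% of all genes. Tnf stood at 9.42 log2 CPM in MG and 6.61 in BMDM (2.73 ± 0.50, edgeR adjusted p = 0.000182). Ifnb1, the interferon beta gene, had 25 to 119 counts in vehicle MG and 0 to 2 in vehicle BMDM. Tnf was also higher in MG after BLZ945 (1.97 ± 0.49) and the combination (3.10 ± 0.59), and in recurrence after IR (1.93 ± 0.49) and both (2.75 ± 0.50). Il12b, a subunit of IL-12, was lower in MG after BLZ945 (-3.57 ± 0.78), IR (-6.53 ± 1.27) and both (-3.40 ± 0.90), and it rose in BMDM against vehicle after IR (3.86 ± 0.63, edgeR adjusted p = 0.00185) and both (2.97 ± 0.58). Il12b is a gene that dendritic cells express strongly, and dendritic cell markers summed to 2311 to 3797 CPM in BMDM of these 2 stages against 793 to 1313 in vehicle, whose part was not tested. After the 5-day combination Ifnb1 had 0 counts in all 3 MG libraries. In recurrence after IR it had 182 to 787 counts in BMDM and 57 to 645 in MG.

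Of 8 other pattern recognition receptors tested, none passed between MG and BMDM in vehicle mice, against 9.14% of all genes. Nod2, a cytosolic sensor of peptidoglycan, was lower in MG after BLZ945 (-2.57 ± 0.80) and the combination (-3.62 ± 0.97), where 21.8% and 12.8% of all genes passed. Aim2, a sensor of cytosolic DNA, was lower in MG after the 5-day combination than in vehicle MG (-1.08 ± 0.26), the comparison in which Tlr9 fell and 13.4% of all genes passed.

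Across the 14 group means, members of the family followed each other to different degrees. Tlr2 and Tlr7 had a Pearson correlation of 0.89, Tlr6 and Tlr7 0.89, Tlr4 and Tlr6 0.88, and the paralogs Tlr1 and Tlr6 0.87, while the neighbours Tlr7 and Tlr8 had -0.29 and Tlr2 and Tlr8 -0.40. The means share libraries and scaling, so these are descriptions over 14 points. By the same measure, the genes closest to Tlr7 were Scamp5 (0.97) and Agmo (0.97), to Tlr8 Gdf3 (0.94) and Pla2g7 (0.93), to Tlr2 Cd99l2 (0.95) and Kcnk13 (0.91), and to Tlr6 Hpgds (0.95) and Osbpl1a (0.94). Those closest to Tlr1 were Zfp608 and Cd84 (0.89 each), to Tlr4 Scamp1 (0.95) and Tmem41b (0.93), and to Tlr13 Atf3 (0.92) and Fam134b (0.90). For the low or uneven members they were Wdfy2 (0.87) and Eif4g2 (0.83) for Tlr5, Pccb (0.95) and Polr3d (0.94) for Tlr3, and Zfand3 (0.94) and Usp5 (0.93) for Tlr9.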

How the data were processed

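The files hold raw counts per gene symbol, as the authors deposited them, for 46 libraries. The tools listed per the submitters' processing notes are STAR 2.5.0e, CASAVA 1.8, DESeq2 and HTSeq, and the build is mm10, while the annotation and strand setting are not given in the sources used here. Per the labels' protocols, cells were sorted into TRIzol LS and amplified as full-length cDNA with a Smart-Seq kit, without molecular identifiers, so counts include amplification noise.

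Groups came from the labels. Counts were tested with edgeR 4.0.16 (R 4.3.3, limma 3.58.1) by the robust quasi-likelihood test with TMM scaling, after filterByExpr (minimum count 10, minimum total 15). MG against BMDM and differences of responses used 1 fit of 15901 genes over all libraries, and comparisons within MG (14534 genes) or BMDM (14568) a fit of their own. All 10 members passed the filter in all 35 comparisons. P-values were adjusted within each comparison (Benjamini-Hochberg, 0.05). SE is the absolute log2 fold change over the square root of F, and log2 CPM uses a prior count of 1. Levels per kilobase use the longest coding transcript. The scripts were tested on simulated data.

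The mouse was not a block in the joint fit. The libraries of a mouse deviated together with a median correlation of 0.15 over 23 mice (-0.09 to 0.45), and the pairing comes from the shared mouse number. Alternatives were DESeq2 1.42.0, other size factors (RLE), no filter, 1 fit over all libraries, terms for the mouse number style, the sex-linked profile and Malat1 minus Lars2, the mouse block, and leaving out doubted or single libraries. Named pathway genes are up to 4 per list and comparison by smallest p. The members and gene lists were chosen with earlier results of these data known.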

Additional observations from a re-analysis of the deposited data

Results flagged for a closer look

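The response of Tlr7 to 5 days of BLZ945 differed between the populations: the MG response minus the BMDM response was 2.58 on the log2 scale. Of 80 groups of 4 libraries examined for a library that stands apart, 3 were found, and chance alone gives about 1 in 20. Tlr5 in 5-day BLZ945 BMDM of mouse 123 stood at 1.40 log2 CPM, with 0 counts in the other 3 libraries. Tlr6 in the same group stood at -1.32 in mouse 122, with the nearest library at 3.19. Tlr6 in recurrent MG after IR with BLZ945 stood at 4.27 in mouse 67169, with the nearest library at 4.48.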

How the results depend on the processing

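Of the 26 member results past the threshold, 16 passed under all 8 alternatives, 11 also without each single library, and 0 reversed. The larger moves in the counts of members called are listed here, and smaller ones are left out. Over the alternatives, MG against BMDM gave 2 to 3 in vehicle mice (2 in the report), 5 to 7 after BLZ945 (5) and 6 to 7 after the combination (6). In MG the combination against vehicle gave at most 3 (2) and recurrence after it at most 4 (3). With 1 fit over all libraries, 5-day BLZ945 against vehicle in BMDM gave 2 (1 in the report), the combination against vehicle 1 in BMDM (0) and 0 in MG (2), the combination against BLZ945 in MG 0 (1), and recurrence against 5 days 0 in MG after BLZ945 (1), 3 in BMDM (1) and 0 in MG (3) after the combination. With DESeq2, BLZ945 gave 3 in BMDM and 1 in MG (0), recurrence against 5 days of IR in MG 1 (0), the combination against BLZ945 in MG 2, against vehicle in BMDM 1, recurrence after it in BMDM 3, differences of responses 2 for BLZ945 (1) and 2 for the combination (0), and MG against BMDM 1 in recurrence after BLZ945 (0), 1 after IR at 5 days (0) and 2 in recurrence after both (1). With the Malat1 minus Lars2 term, 4 counts fell to 0: recurrence after BLZ945 in MG, the combination against vehicle in MG, and recurrence after it in BMDM and MG. With the mouse number style term, recurrence after BLZ945 gave 0 in BMDM and MG, after IR in MG 1, after the combination in BMDM 2, the combination against BLZ945 in MG 0, against vehicle 2 in BMDM and 0 in MG, and the difference of responses to BLZ945 2. With the sex-linked term, recurrence gave 0 in MG after BLZ945, 1 in MG after IR and 0 in BMDM after the combination, and the combination against vehicle in MG 1. With RLE the combination against BLZ945 in MG gave 2, and without a filter 0, with 1 for the combination against vehicle in MG. Without doubted libraries, BLZ945 gave 2 in BMDM and 1 in MG, the combination against vehicle 3 in BMDM and 1 in MG, against BLZ945 in MG 0, recurrence after it in BMDM 4, its difference of responses 1, and MG against BMDM 1 in recurrence after BLZ945, 1 after IR at 5 days and 2 in recurrence after both. That count after IR rests on 1 library per population, assumed to vary like the other groups. The cause was not tested.

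The replicate block of the mouse gave 1 member for the difference of responses to the combination (Tlr4, 1.61). It also passed Tlr2 in vehicle mice (0.76), Tlr9 (3.82) and Tlr13 (0.84) after BLZ945 and Tlr8 after the combination (-2.88), and changed no other call between MG and BMDM. Comparisons within a population hold 1 library per mouse, so no block was possible there.

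Leaving out single libraries gave 1 to 4 members for BLZ945 against vehicle in BMDM, 0 to 2 and 0 to 1 for recurrence after BLZ945 in BMDM and MG, 0 to 1 for the combination against BLZ945 in both, 0 to 2 against vehicle in MG, 0 to 1 and 2 to 3 for recurrence after it in BMDM and MG, and 1 to 2 for the difference of responses to BLZ945. For MG against BMDM it gave 1 to 2 in vehicle mice, 4 to 6 after BLZ945, 4 to 6 after the combination and 0 to 1 in recurrence after IR. Over all genes, BLZ945 against vehicle in BMDM called 803 genes with edgeR and 1741 with DESeq2, and the difference of responses 263 and 693. RLE moved the share of higher calls from 42.4% to 60% for recurrence after the combination against vehicle in MG. Groups of 2 mice, and Tlr5 and Tlr9 at few counts, limit what could be detected.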

Other observations

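Tlr11 and Tlr12, endosomal receptors for profilin of protozoa that are not among the 10 genes described above, were also measured. Tlr11 had 85 to 247 counts in vehicle BMDM (3.37 ± 0.60 log2 CPM, SD, n = 4) and 0 to 5 in vehicle MG. After 5 days of BLZ945 it had 10 to 29 counts in MG and 0 to 1249 in BMDM. In recurrent BMDM it had 4 to 23 counts after BLZ945, 0 to 8 after IR and 2 to 100 after both. Tlr12 stood at 4.63 ± 0.42 log2 CPM in vehicle BMDM and at 4.60 ± 1.96 in vehicle MG, where its counts ran from 43 to 1074. In BMDM it stood at 2.69 ± 0.45 after 5 days of IR (n = 2) and 3.16 ± 0.25 after 5 days of both (n = 3).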
